A study of Mus musculus with 4 samples.

Results

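Eomes, Neurog2, Insm1, Gadd45g, Btbd17, Mfng and Rgs3 are genes associated with intermediate neuronal progenitors. These genes were followed in the dentate gyrus of mice with a conditional knockout of Eed. They were picked by symbol, and all 7 were found among the 18042 genes of the deposited table. The libraries came from the hippocampal dentate gyrus of C57BL/6 mice at postnatal day 14, 2 conditional Eed knockouts (Eed cKO) and 2 wild types (WT). Eed is a core subunit of Polycomb repressive complex 2, which methylates lysine 27 of histone H3 and keeps many developmental genes silent. The labels do not name the Cre line or promoter that drives the deletion, the exons removed, the sex of the mice, or how many mice gave each library. The authors' table gives group means, from which the count of each library was recovered, so each library has a known genotype but no known replicate number, and is called A or B.

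In the dentate gyrus, radial glia-like stem cells give rise to intermediate progenitors, which divide a few more times and produce the neuroblasts that become granule neurons. Eomes (also called Tbr2) is the T-box transcription factor that marks intermediate progenitors, and in mice it is needed for neurogenesis in this region. Neurog2 is a proneural factor that acts upstream of Eomes in the developing cortex, and Notch signalling between neighbouring cells holds back the step from stem cell to progenitor.

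The recovered libraries held 17433769 and 17263273 counts in Eed cKO and 17789587 and 17345946 counts in WT, with 17421 to 17634 genes detected. Eed itself had 133 and 142 counts in Eed cKO, against 251 and 301 counts in WT. Its level was 50.2% of WT (log2 fold change -0.98 ± 0.14 SE, limma adjusted p = 0.0189). Xist, the RNA of the inactive X chromosome, had 3809 and 8 counts in Eed cKO and 11 and 8 counts in WT, so Eed cKO A stood apart. The Y-linked gene Ddx3y had 0 and 468 counts in Eed cKO and 562 and 451 counts in WT. Eif2s3y, also Y-linked, had 1 and 850 counts in Eed cKO and 817 and 835 counts in WT. By these counts Eed cKO A was female and Eed cKO B, WT A and WT B male, though the labels give no sex. Ttr, a choroid plexus transcript, had 35706 and 23697 counts in Eed cKO and 33234 and 110 counts in WT, so WT B stood apart. The dentate marker Prox1, a homeobox factor of granule neurons, was abundant in both genotypes, at 925 and 860 counts in Eed cKO and 3381 and 4482 counts in WT.

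Eomes fell in Eed cKO, and it was the only member of the 7 that passed the test. It had 58 and 26 counts in Eed cKO, against 150 and 209 counts in WT. Both Eed cKO libraries lay below both WT libraries. The exact 95% Poisson intervals of the counts were 44.0 to 75.0 and 17.0 to 38.1 in Eed cKO. In WT they were 127 to 176 and 182 to 239. No interval met another, so libraries of the same genotype also differed beyond counting error. The normalized count averaged 42.0 ± 22.5 in Eed cKO and 178 ± 42.2 in WT (SD, n = 2 each), or 23.5% of WT. The log2 fold change was -2.15 ± 0.39 (SE), with a 95% interval of the fold of 0.117 to 0.437 (limma, Benjamini-Hochberg adjusted p = 0.0341). The authors' deposited table gives a log2 fold change of -2.09 and an adjusted p of 7.31e-06 for Eomes. In bulk tissue, fewer cells of a type and less RNA per cell cannot be told apart. Eomes lies on chromosome 9, from 118478212 to 118486132 on the plus strand of GRCm38 (GENCODE M21, ENSMUSG00000032446). Of its exonic bases, 118 are shared with the antisense transcript Gm33460, and the strand setting of the authors' counting is not given in the sources used here.

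The log2 fold change of Eomes stayed between -2.76 and -1.59 under every alternative tried. In limma it was -2.39 with WT A left out and -1.91 with WT B left out. It was -2.71 when Eed cKO A was dropped and -1.59 when Eed cKO B was. In edgeR the fits that left out 1 library ran from -2.76 (Eed cKO A dropped) to -1.62 (Eed cKO B dropped). Leaving out any library, Eed cKO or WT, leaves 1 in that group, which is then assumed to vary like the other group. Over the whole table, limma called fewer genes with either Eed cKO library left out and more with WT A left out. The Eomes call was lost in some of these fits and kept in others, in limma and in edgeR. With 1 library in a group, neither outcome can settle whether the call holds.

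**Figure D1:**
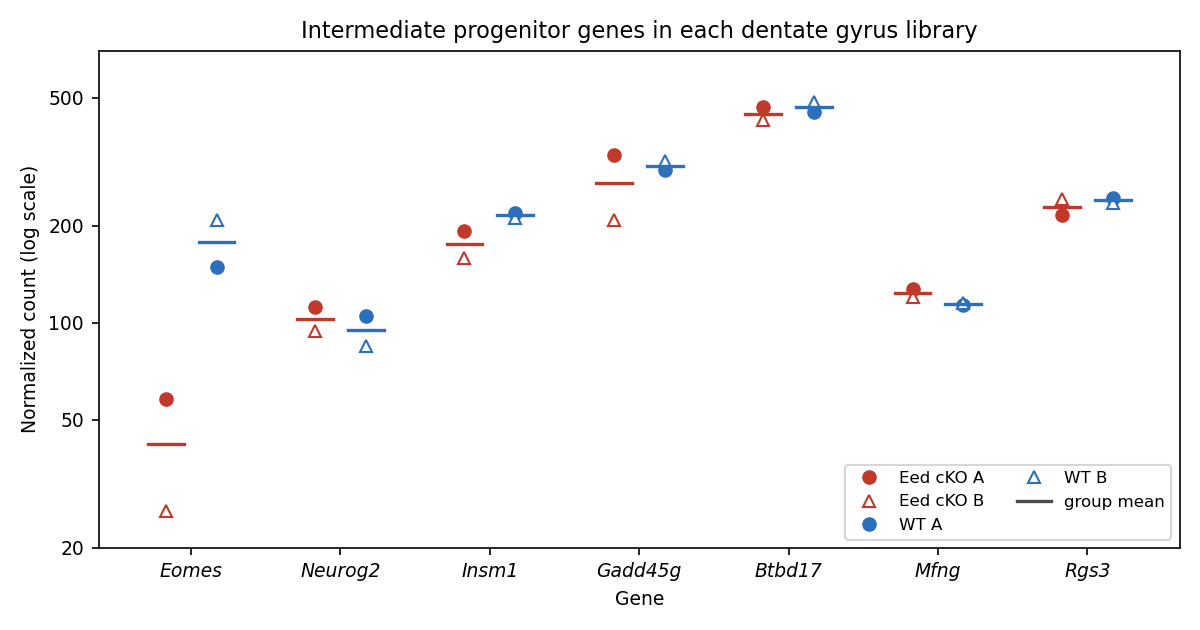
Normalized count of each gene (log scale) in the 2 Eed cKO libraries (red, left of each pair) and the 2 WT libraries (blue, right); lines are group means. Eomes averaged 42.0 in Eed cKO and 178 in WT, while the group means of the other 6 genes lie close together; the Eed cKO points of Gadd45g lie apart.

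Promoter sequence was available for 5 of the 7 genes (Eomes, Neurog2, Gadd45g, Btbd17 and Rgs3) and is shown to set the gene that fell beside those that did not pass the test. The Eomes promoter, from 250 bases before to 50 bases after the start in RefSeq GRCm38.p6, lies at chr9:118477939-118478238 on the plus strand, with the TATAA letters in capitals.
Eomes: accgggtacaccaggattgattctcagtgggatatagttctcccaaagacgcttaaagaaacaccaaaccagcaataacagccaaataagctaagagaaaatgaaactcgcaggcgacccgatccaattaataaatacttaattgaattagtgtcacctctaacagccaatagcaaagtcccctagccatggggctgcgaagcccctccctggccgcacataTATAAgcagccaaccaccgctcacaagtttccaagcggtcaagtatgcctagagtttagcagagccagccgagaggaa

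The letters TATAA stand 28 bases before the RefSeq start of Eomes, 27 before those of Neurog2 and Gadd45g and 32 before that of Btbd17. On the gene's strand between 40 and 21 bases before the start, they were found in 4 of the 5 genes, against 3.31% of 32851 promoters. The first is a count of genes and the second a share of promoters, in which a gene with 2 starts counts 2 times. The 60 bases around each start follow, on the plus strand for Eomes at chr9:118478139-118478198, Neurog2 at chr3:127633086-127633145 and Gadd45g at chr13:51846625-51846684, and on the minus strand for Btbd17 at chr11:114795883-114795942, with TATAA in capitals.
Eomes: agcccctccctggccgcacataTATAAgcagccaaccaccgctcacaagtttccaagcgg
Neurog2: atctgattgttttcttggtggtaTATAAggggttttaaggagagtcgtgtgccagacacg
Gadd45g: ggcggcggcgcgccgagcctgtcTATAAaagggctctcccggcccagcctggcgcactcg
Btbd17: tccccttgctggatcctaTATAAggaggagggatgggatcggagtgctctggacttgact
Rgs3, with 2 annotated starts, has no TATAA in that interval. The motif CCAAT, or ATTGG on the other strand, is held by 37.4% of all promoters, and was found 2 times in the Eomes promoter, 1 time each in Gadd45g and Btbd17 and not in Neurog2 or Rgs3. None of the 5 genes' promoters holds CAGATG or CATCTG, found in 17.2% of all promoters, or AGGTGT or ACACCT, found in 13.7%. The Eomes promoter has 10 CpG and that of Neurog2 also 10, near the median of 7 over all promoters, while Gadd45g has 21 and Btbd17 has 3. By RefSeq starts, the gene that fell thus shares its TATAA placement with 3 genes that did not pass the test. GENCODE M21 places 2 of these starts elsewhere. The 60 bases shown for Eomes end before its GENCODE start at 118478212. Those shown for Btbd17 lie within its GENCODE gene, which starts at 114795945 on the minus strand. TATAA placement was not counted from GENCODE starts.

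Of the 7 genes tested, 1 was lower, 0 were higher and 6 did not pass in limma; over all 15020 genes tested, 6.44% were called, 2.90% lower and 3.54% higher. edgeR called the same 1 of the 7 lower, against a background of 6.65% (2.87% lower, 3.78% higher), and DESeq2 did so against 7.24% (3.30% lower, 3.95% higher). A single call among 7 genes is too few to tell the group from that background. The median log2 fold change of the 7 genes was -0.07, against -0.003 for all tested genes. Groups did not overlap in 3 of the 7 genes (Eomes, Insm1 and Mfng), against 56.8% of all genes tested. At an unadjusted p under 0.05 the limma test had 1 of the 7 genes, against 24.8% of all genes.

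Neurog2, the proneural bHLH factor, did not follow Eomes. It had 112 and 94 counts in Eed cKO, against 106 and 85 counts in WT, and the groups overlapped. Its normalized count averaged 103 ± 12.3 in Eed cKO and 94.9 ± 14.4 in WT (SD, n = 2 each), with a 95% interval of the fold of 0.784 to 1.51 (limma adjusted p = 0.737). That interval excludes the fold at which Eomes stood. Neurog2 lies on chromosome 3 from 127633135 to 127635631, on the plus strand (ENSMUSG00000027967).

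Insm1, a zinc finger factor that promotes the formation of intermediate progenitors in mouse cortex, had 194 and 158 counts in Eed cKO, against 222 and 213 counts in WT. Its level was 81.5% of WT and the groups did not overlap, but the test was not passed (log2 fold change -0.30 ± 0.14 SE, fold interval 0.635 to 1.04, limma adjusted p = 0.261). Insm1 lies on chromosome 2 from 146221921 to 146225020, on the plus strand (ENSMUSG00000068154).

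Gadd45g, a stress-inducible growth arrest gene, had 334 and 208 counts in Eed cKO, against 301 and 319 counts in WT. The Eed cKO libraries differed from each other beyond counting error, with Poisson intervals of 299 to 372 and 181 to 238, and between them lay both WT libraries. The log2 fold change was -0.22 ± 0.22 (SE, fold interval 0.590 to 1.24, limma adjusted p = 0.579), and it was 0.11 without Eed cKO B. Gadd45g lies on chromosome 13 from 51846678 to 51848468, on the plus strand (ENSMUSG00000021453).

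Mfng, a fringe glycosyltransferase that modifies Notch receptors, had 128 and 120 counts in Eed cKO, against 115 and 116 counts in WT. The groups did not overlap, yet the difference did not pass (log2 fold change 0.11 ± 0.15 SE, fold interval 0.842 to 1.38, limma adjusted p = 0.683). Btbd17, which encodes a BTB domain protein, had 468 and 424 counts in Eed cKO, against 457 and 487 counts in WT. Its groups overlapped and its fold interval was 0.808 to 1.12 (limma adjusted p = 0.685). Rgs3, a GTPase-activating protein for G protein alpha subunits, had 216 and 241 counts in Eed cKO, against 246 and 237 counts in WT. Its groups overlapped too, and its fold interval was 0.777 to 1.17 (limma adjusted p = 0.752). Mfng lies on chromosome 15 from 78755882 to 78773475 (minus strand, ENSMUSG00000018169), Btbd17 on chromosome 11 from 114791217 to 114795945 (minus strand, ENSMUSG00000000202) and Rgs3 on chromosome 4 from 62559847 to 62704001 (plus strand, ENSMUSG00000059810). The 6 genes other than Eomes had lower fold bounds of 0.590 or more, so the Eomes level of 23.5% of WT lay outside each of their intervals. Which cells gave the reads of these 6 genes cannot be told in bulk tissue and was not tested.

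**Figure D2:**
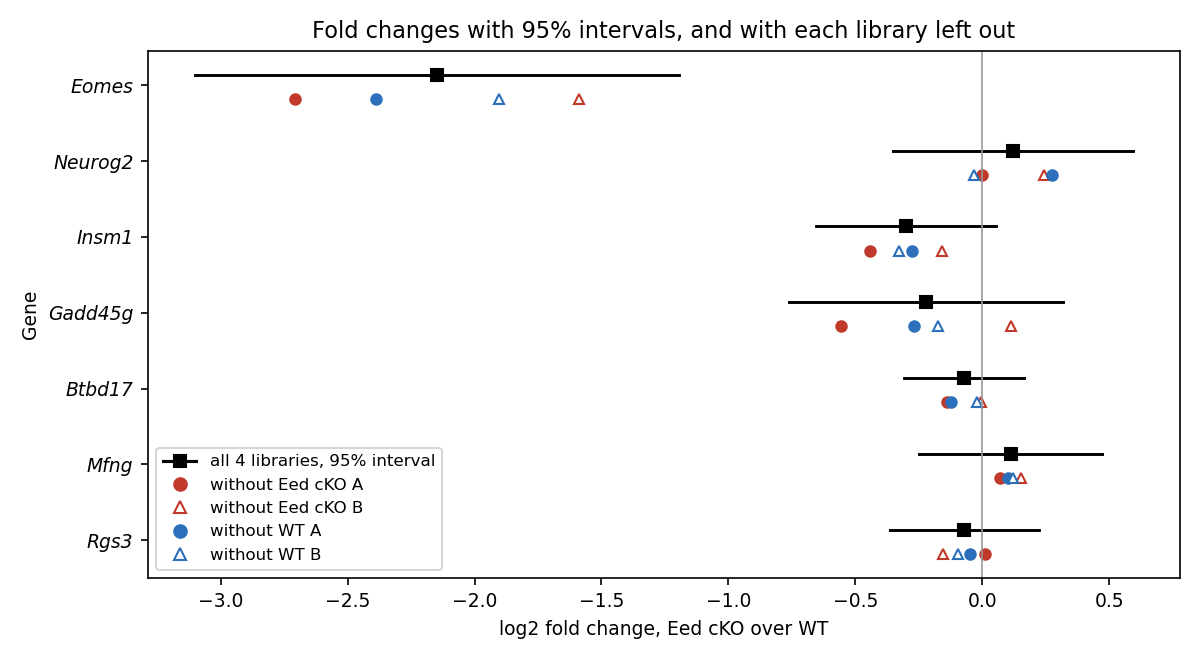
Log2 fold change (Eed cKO over WT) for each gene, with all 4 libraries (square, 95% interval) and with each library left out (circles and triangles). The Eomes interval lies below 0 and those of the other 6 genes cross it.

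Per kilobase of exon, Gadd45g had the highest level, at 231 ± 75.0 normalized counts in Eed cKO and 263 ± 11.9 in WT (SD, n = 2 each). Btbd17 came next, at 140 ± 9.17 in Eed cKO and 147 ± 7.22 in WT, and Insm1 after it, at 56.8 ± 7.97 in Eed cKO and 69.7 ± 1.75 in WT. These 3 genes kept that order in both genotypes, with no overlap between neighbours. In WT the levels per kilobase of Eomes (42.9 ± 10.2), Neurog2 (42.6 ± 6.45) and Mfng (40.4 ± 0.413) overlapped, with Rgs3 lowest at 22.2 ± 0.495. In Eed cKO, Neurog2 (46.3 ± 5.52) and Mfng (43.7 ± 1.81) still overlapped, Rgs3 was at 21.2 ± 1.73, and Eomes was lowest at 10.1 ± 5.41. Eomes was thus level with Neurog2 and Mfng in WT and below Rgs3 in Eed cKO, without overlap. Length here is all annotated exonic bases of a gene, 4155 for Eomes and 10801 for Rgs3. The order of the genes depends on that choice, and by count Rgs3 stood above Eomes in WT too.

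Eomes reads were 3.84% (exact 95% interval 2.93 to 4.94) and 2.05% (1.34 to 2.98) of the 7 genes' reads in Eed cKO, against 9.39% (8.01 to 10.9) and 12.5% (11.0 to 14.2) in WT. The share averaged 2.94% ± 1.27 in Eed cKO and 11.0% ± 2.23 in WT (SD, n = 2 each). An exact two-sided permutation test gave p = 0.333, the smallest p that 2 against 2 libraries allow. The summed counts of the other 6 genes were 1452 and 1245 in Eed cKO and 1447 and 1457 in WT. Per Neurog2 read there were 0.518 and 0.277 Eomes reads in Eed cKO, against 1.42 and 2.46 in WT. Per read of Neurod1, a bHLH factor of the neuroblast stage, there were 0.0876 and 0.0415 Eomes reads in Eed cKO, against 0.0915 and 0.108 in WT. Neurog2 reads per Neurod1 read were 0.169 and 0.150 in Eed cKO, against 0.0646 and 0.0437 in WT. Eomes thus stood lower relative to Neurog2, while Neurog2 stood higher relative to Neurod1.

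**Figure D3:**
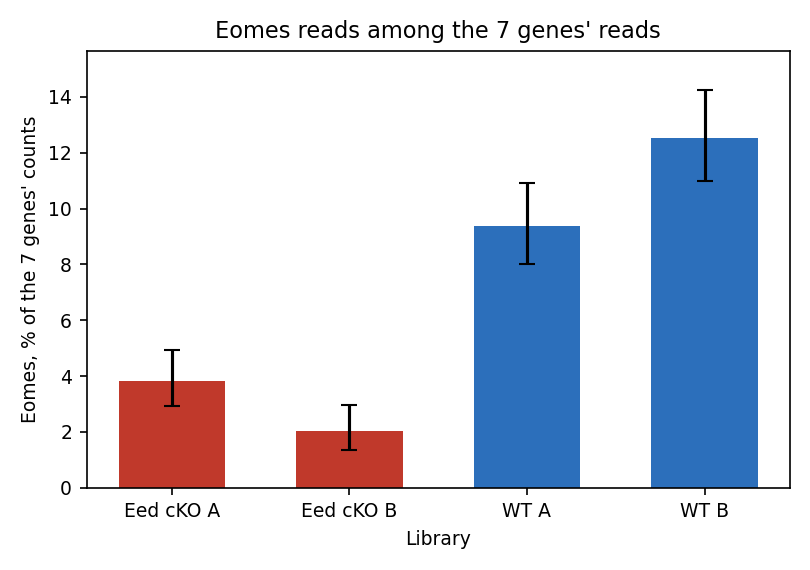
Share of the 7 genes' reads that came from Eomes in each library, in percent; bars are shares and whiskers exact 95% binomial intervals, which cover counting error only. The Eed cKO libraries stand at 3.84% and 2.05% and the WT libraries at 9.39% and 12.5%.

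Likeness to Eomes in pattern was measured by the root mean square difference over the 4 libraries of log2(normalized count + 1) minus its WT mean, among 12333 genes. The 4 nearest were Gpr139, an orphan G protein-coupled receptor (0.343), Prox1 (0.363), Sox11, a SoxC transcription factor of immature neurons (0.368), and Draxin, a secreted axon guidance protein (0.370). Gpr139 had 27 and 22 counts in Eed cKO, against 75 and 131 counts in WT. Since the 4 genes were picked for matching Eomes over these same libraries, their lower values in Eed cKO follow from the choice and are a description only.

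Other genes of the intermediate progenitor stage moved in both directions. Of 18 such genes, 17 were tested, of which 5 were lower, 2 higher and 10 not past the limma test, with a median log2 fold change of -0.13 against -0.003 for all tested genes. Over all tested genes, limma called 2.90% lower and 3.54% higher. Draxin had 92 and 61 counts in Eed cKO, against 292 and 257 counts in WT (limma adjusted p = 0.0131). Nhlh1, a bHLH factor, had 27 and 29 counts in Eed cKO, against 94 and 86 counts in WT (limma adjusted p = 0.0143). Draxin stood at 28.1% and Nhlh1 at 31.3% of WT, and Mfap4, a microfibril-associated protein, fell to 43.7% of WT (limma adjusted p = 0.00955). Sstr2, a somatostatin receptor, fell to 56.3% of WT (limma adjusted p = 0.0287). Neurod4 had 4 and 5 counts in Eed cKO, against 17 and 31 counts in WT, and passed the filter on low counts only through WT (limma adjusted p = 0.0496); it did not pass in edgeR (adjusted p = 0.0503), in DESeq2 (0.105) or in limma without WT B (0.134). The transcription factor Tfap2c was 2.43-fold higher (limma adjusted p = 0.0166) and the netrin receptor gene Unc5d was 1.80-fold higher (limma adjusted p = 0.0187). The Notch ligand gene Dll1 averaged 123 ± 14.7 normalized counts in Eed cKO and 171 ± 1.41 in WT (SD, n = 2 each, limma adjusted p = 0.124), and Neurog1, the Neurog2 paralogue, had at most 2 counts in any library and was not tested. Without either Eed cKO library, limma called none of these genes, as it called none in the whole table, while edgeR called 1 lower when Eed cKO A was left out and 0 when Eed cKO B was left out.

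Genes of the stages on either side of the progenitor were set beside it. Of 12 neuroblast and immature neuron genes, 7 were lower, 0 higher and 5 not past the limma test, with a median log2 fold change of -0.77. Igfbpl1 fell to 7.74% of WT (limma adjusted p = 0.00209), Sox11 to 23.2% (0.00329), Prox1 to 22.8% (0.00488) and Neurod1 to 36.2% (0.00488). Of 18 radial glia-like stem cell genes, 4 were lower and 0 higher, with a median of -0.27. Astrocytes share genes with these stem cells, Slc1a3 among them, and of 8 astrocyte markers 3 were lower and 1 higher, with a median of -0.42; their part in the stem cell counts was not tested. The receptor gene Notch2 fell to 61.9% of WT (limma adjusted p = 0.0212), the glutamate transporter gene Slc1a3 to 59.8% (0.0270) and the homeobox gene Emx2 to 70.2% (0.0290). Hes1, a Notch target that represses proneural genes, averaged 352 ± 24.7 normalized counts in Eed cKO and 186 ± 55.4 in WT (SD, n = 2 each, limma adjusted p = 0.0570), and it passed in DESeq2 (adjusted p = 0.00365). Emx2 did not pass without WT A (limma adjusted p = 0.0522), without WT B (0.0571) or in DESeq2 (0.0565). Limma called more stem cell genes lower without WT A, fewer without WT B, and a gene higher in each of these fits, where 1 WT library is left. Over all genes, limma also called more without WT A than with all libraries. Of 7 granule neuron markers, 3 were lower and 0 higher, namely Prox1, Lct at 21.7% of WT (limma adjusted p = 0.00329) and Dsp at 43.8% (0.00798). Median values of lists are set beside the -0.003 of all tested genes, and counts of calls beside the 2.90% lower and 3.54% higher in limma. The lists share genes with each other.

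**Figure D4:**
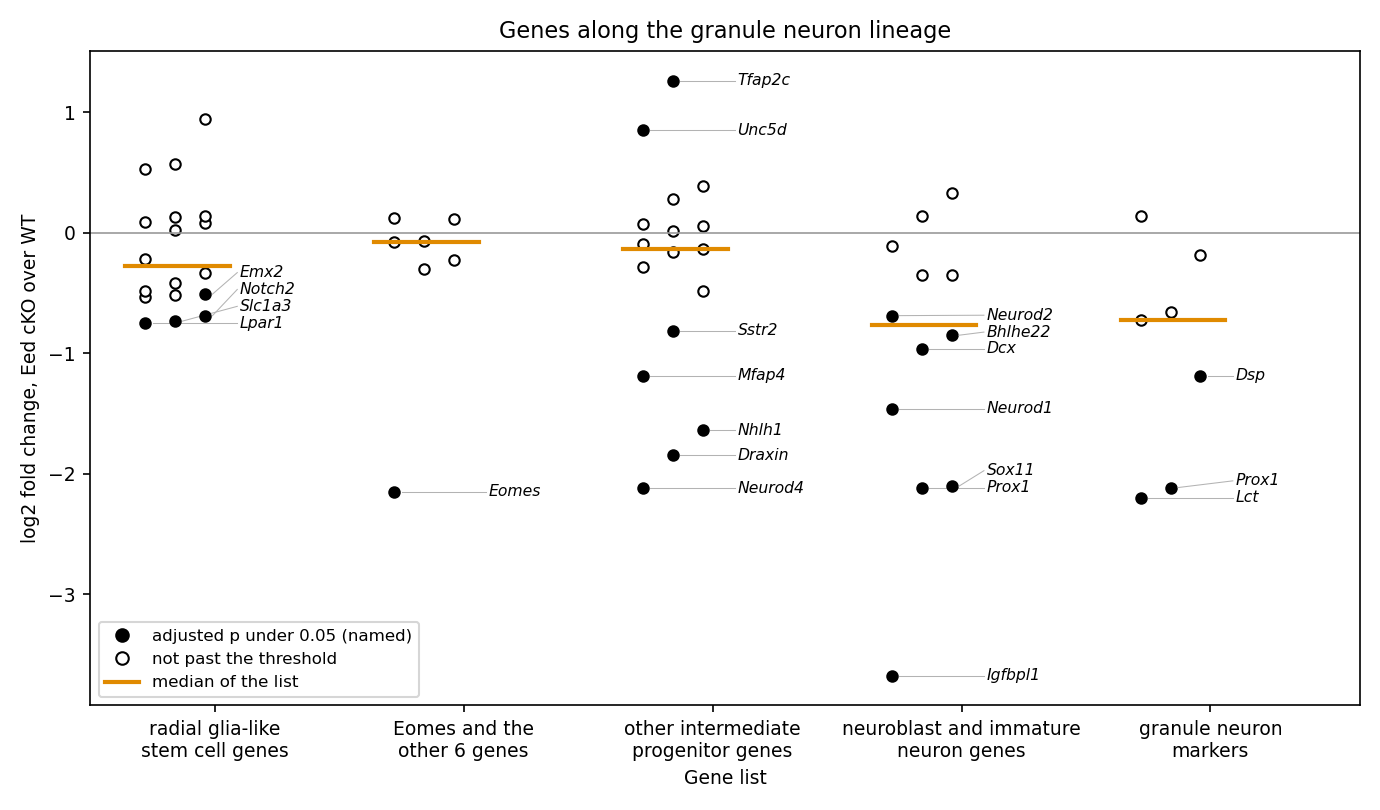
Log2 fold change (Eed cKO over WT) for genes of 5 lists, ordered from stem cell to granule neuron; filled points passed the limma test, open points did not, and the bar is the list's median. Eomes is at -2.15 and the other 6 genes lie near 0.

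Paralogues and pathway partners of the 7 genes were examined in the same test, which called 2.90% of all tested genes lower and 3.54% higher. Of 18 Notch ligands, receptors, fringes and targets, 2 were lower and 0 higher, with a median of -0.17. Those 2 were Notch2 and Nrarp, a Notch-induced feedback regulator, which fell to 54.2% of WT (limma adjusted p = 0.0281, but 0.0514 without WT A and 0.0657 without WT B). Limma called fewer of the 18 Notch genes lower without WT A or without WT B, fits in which 1 WT library is left. Without WT A, where limma also called more genes over the whole table, it called some Notch genes higher. DESeq2 called 2 lower and 1 higher. Lfng and Rfng, the other fringe genes, did not pass (limma adjusted p = 0.114 and 0.701). Of 10 tested T-box genes, Tbx5 alone passed, with 45 and 37 counts in Eed cKO against 2 and 1 counts in WT (limma adjusted p = 0.00972), and Tbx5 entered the test through Eed cKO alone. Tbr1, the T-box gene of postmitotic glutamatergic neurons, did not pass (limma adjusted p = 0.809). Neither Insm2 (limma adjusted p = 0.853), Gadd45a (0.385) nor Gadd45b (0.847) passed. Among Gadd45 genes and partners, Cdkn1a, the inhibitor of cyclin-dependent kinases, was 2.18-fold higher (limma adjusted p = 0.0131), and 0 were lower of 6 tested. Of 15 tested RGS genes, 2 were higher and 0 lower, Rgs4 at 1.67-fold (limma adjusted p = 0.00966) and Rgs10 at 1.56-fold (0.0159). Of 4 tested Insm and Gfi family genes, Scrt2 fell to 62.3% of WT (limma adjusted p = 0.0172), and of 10 tested Btbd genes, Btbd9 fell to 70.6% (0.0390, but 0.0571 without WT B). Of 9 tested Neurogenin and Atoh family genes, 4 were lower and 0 higher, with a median of -0.35. They were Neurod1, Neurod2, at 62.1% of WT (limma adjusted p = 0.00799), Bhlhe22, at 55.4% (0.00972), and Neurod4, which entered the test through WT alone. The count was 3 in edgeR and in DESeq2, where Neurod4 did not pass.

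Progenitors use cell cycle genes while they divide. Of 22 such genes, 3 were lower, 0 higher and 19 not past the limma test, with a median of -0.40. The limma shares over all tested genes were 2.90% lower and 3.54% higher. Mcm7 and Mcm6, subunits of the replicative helicase, fell to 54.2% (limma adjusted p = 0.0226) and 54.0% (0.0308) of WT, and Rrm2, a ribonucleotide reductase subunit, to 48.5% (0.0343). Without WT B, limma called 0 of these genes, with adjusted p of 0.0545 for Mcm7, 0.0648 for Mcm6 and 0.0787 for Rrm2. Rrm2 also missed the threshold without WT A (limma adjusted p = 0.0677) and in DESeq2 (0.0671).

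Markers of other cell types that could carry Eomes or share the tissue were set beside the Eomes result. As a background, limma called 2.90% of all tested genes lower and 3.54% higher. Cajal-Retzius cells are early cortical neurons that persist in the dentate gyrus. Their 8 markers summed to 4469 and 4468 counts in Eed cKO and 3496 and 3920 counts in WT, mostly from Reln. Of these 8 genes, 1 was higher (Ebf3, 3.75-fold, limma adjusted p = 0.00951) and 0 lower, and Trp73, a defining marker, had 222 and 249 counts in Eed cKO, against 253 and 177 counts in WT. Of 10 T and NK cell markers, cells that use Eomes outside the brain, 3 were in the table and summed to 7 and 0 counts in Eed cKO and 4 and 2 counts in WT. Astrocyte markers summed to 49135 and 48843 counts in Eed cKO and 63516 and 73936 counts in WT. Most of these were Slc1a2 counts, at 34660 and 35415 in Eed cKO and 45196 and 52082 in WT. Slc1a2 did not pass (limma adjusted p = 0.112). Of the 8 astrocyte markers, 3 were lower (Ntsr2, Gjb6 and Gja1, at 51.1%, 52.4% and 55.1% of WT) and 1 was higher (S100b). Their part in the Eomes result was not tested. Oligodendrocyte precursor markers summed to 15322 and 13841 counts in Eed cKO and 12383 and 12867 counts in WT, and 1 of 7 was higher (Sox10, 1.35-fold, limma adjusted p = 0.0255). Of 8 endothelial markers and 8 microglia markers limma called 0 each, with 2 and 3 at an unadjusted p under 0.05. The smallest adjusted p was that of Pecam1 (0.0528) among the endothelial markers and of Cx3cr1 (0.105) among the microglia markers. By other tools, edgeR called 1 endothelial marker lower and DESeq2 called 1 microglia marker higher. Choroid plexus markers summed to 36805 and 24360 counts in Eed cKO and 34826 and 339 counts in WT. Except in WT B, most of these counts came from Ttr. Of the 7 markers, 0 passed the test. The unadjusted limma p was under 0.05 for 0 of them. With WT A left out, Eed cKO is set against WT B alone, the library with 339 counts of these markers. Limma called most of them higher in that fit, where it also called more genes over the whole table. The part of choroid plexus content, and of the Xist difference that sets Eed cKO A apart, in the Eomes result was not tested.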

How the data were processed

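Bulk RNA-seq of 4 dentate gyrus libraries was deposited as a single table of 18042 genes. Per the file headers, it holds each group's mean signal in size-factor-normalized counts, the log2 fold change (Eed cKO over WT) and its standard error, and a Wald score with raw and adjusted p-value columns. Per the submitters' processing notes, HISAT2 2.1.0, DESeq2 1.2.0 and GRCm38 were used. The counter, annotation and strand setting were not given in the sources used here. A deposited group signal averages 2 counts over their size factors, so whole reads were recovered for 100% of genes within a tolerance of 1e-08. Size factors ran from 0.996 to 1.01. Groups came from the sample titles, and the design text calls the replicates biological.

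The 15020 genes that reached 10 normalized counts in 2 or more libraries were tested with limma 3.58.1 (intensity trend, log2(normalized count + 1), genotype only, two-sided, Benjamini-Hochberg, threshold 0.05). Fold changes are on that scale, which understates low genes. Gene lengths and positions are those of GENCODE M21, which matched 18030 genes by ID. Poisson and binomial intervals cover counting error only. edgeR 4.0.16 on the recovered reads called 999 genes, 568 higher and 431 lower; DESeq2 1.42.0, other pseudocounts and filters, a term for the Xist library and leave-one-out fits were the other alternatives, and the leave-one-out fits in edgeR were chosen after seeing the data. The fits were also run on simulated counts with known fold changes, as a check of the code. That check covered the median fold changes and not the adjusted p-values of these libraries.

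The 7 genes and the 19 other lists were chosen with earlier results of these data known. The text names the 7 genes and Eed, named paralogues, and the 4 genes most like Eomes with a mean of at least 50. From each other list it names up to 3 genes with the smallest p past the threshold, or else the 1 with the smallest p. Ttr, Xist and the Y-linked Ddx3y and Eif2s3y are also named. Dll1, Hes1, Sstr2, Neurod4, Unc5d, Tfap2c, Trp73, Reln, Slc1a2 and S100b were named after their values were seen. The values of 1 further gene are not reported here.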

Additional observations from a re-analysis of the deposited data

How the results depend on the processing

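Among the 7 genes, the direction of 112 values recomputed under alternatives was kept except in 7 values, and 6 lost the call, all of Eomes. Without a filter on low counts, 271 genes were higher, 202 lower and 0 of the 7 genes lower (Eomes adjusted p = 0.0785), with 18042 genes tested. With a term for the Xist-bearing library, which takes Eed cKO A out of the comparison, these counts were 0, 0 and 0 (Eomes -2.71, adjusted p = 0.192), so no gene of the table kept a call. Over the fits that left out 1 library, they ran from 0 to 874 higher, from 0 to 795 lower and from 0 to 1 of the 7 genes lower. In limma all were 0 without either Eed cKO library, and 0 of the 7 genes were lower without WT B. Log2 fold changes that changed sign with a library left out ran from -0.032 to 0.28 for Neurog2, -0.56 to 0.12 for Gadd45g, -0.15 to 0.020 for Rgs3, -0.45 to 0.24 for Tbr1, -0.39 to 0.15 for Insm2, -0.030 to 0.14 for Gadd45b, -0.15 to 0.038 for Rfng, -0.091 to 0.42 for Trp73 and -0.18 to 8.08 for Ttr. With the Xist term they were 0.012 for Rgs3, 0.24 for Tbr1 and 0.031 for Rfng, and the cause was not tested. No paired analysis was possible because the recovered libraries carry no replicate number. With 2 libraries a group, limma p-values rest on 2 residual degrees of freedom and 4 prior ones borrowed from other genes, and Eomes counts of 26 to 209 limit the precision of its fold change.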
